A study of Drosophila melanogaster with 3 samples.

Results

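The sites described here are the ORC2 peaks on the left arm of chromosome 2 (2L) of Drosophila melanogaster that begin before position 20000000, counted on FlyBase release 5. They were chosen by position alone from the authors' joined list, in which each peak unites overlapping peaks of both ChIP replicates. The interval holds 764 of the 5159 joined peaks of the series (14.8%). The other 90 joined peaks of 2L lie nearer the centromere and were not used. The last site inside the limit spans 19935174 to 19935432 (259 bp, score 2.82), and the next joined peak outside it spans 20061454 to 20061580 (127 bp, score 3.14).

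All samples come from asynchronous cultures of Kc167, a female cell line made from late-stage embryos, with the genotype se/e. There are 2 ORC2 ChIP-seq samples from separate extractions, and 1 input DNA sample from a further extraction for which no separate values were analysed here. Chromatin was crosslinked and precipitated with a crude polyclonal rabbit antibody raised to full-length ORC2, then sequenced on an Illumina instrument. No treatment or second genotype was compared, so each value below is a position, a width, a spacing or a score, and its check is the other replicate.

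The origin recognition complex (ORC) is a complex of several subunits that binds chromatin and, with Cdc6 and Cdt1, loads the MCM helicase onto DNA before S phase. Each loaded site is then licensed to start replication, although many licensed sites do not fire in a given cell cycle. In Drosophila, unlike in budding yeast, ORC recognizes no strict consensus sequence, and its binding sites are often found in open chromatin. The positions and spacing of ORC sites therefore describe where replication may begin, not where it does begin. On 2L low coordinates lie toward the telomere and high coordinates toward the centromere.

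ORC2 sites were spread over the whole interval at 38.2 per Mb (exact 95% Poisson interval 35.5 to 41.0, counting error only). Replicate 1 alone had 1290 peaks in the interval, or 64.5 per Mb, and replicate 2 alone had 980, or 49.0 per Mb. The first site spanned 73131 to 73349. Together the joined sites covered 207 kb, which is 1.03% of the interval. Replicate 1 peaks covered 244 kb and replicate 2 peaks 147 kb. Neither list gives reads, and the larger number of peaks in replicate 1 cannot be set against depth.

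The 2 replicates found many of the same places on this arm. Of the 1290 replicate 1 peaks, 769 were overlapped by a replicate 2 peak (59.6%, exact 95% binomial interval 56.9 to 62.3%), beside 57.8% of replicate 1 peaks over all chromosomes. Of the 980 replicate 2 peaks, 785 were overlapped by a replicate 1 peak (80.1%, 77.5 to 82.6%), beside 80.5% over all chromosomes. Both shares are near those of the series and are not a result about 2L. Peaks found in 1 replicate were narrow. Their median width was 72.0 bp in replicate 1, where overlapped peaks had 184 bp, and 31.0 bp in replicate 2, where overlapped peaks had 127 bp. Wide peaks meet the rule of at least 1 bp of overlap more easily, which itself limits this comparison.

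The overlapping peaks of the 2 replicates were then compared pair by pair. Of the 764 sites, 740 join exactly 1 peak of each replicate. The midpoints of these pairs differed by a median of 18.0 bp (interquartile range 6.50 to 45.0 bp), and the largest difference was 296.5 bp. Pairs had to overlap, which itself limits these differences. In 580 of the 740 pairs (78.4%) the replicate 2 peak was the narrower, and the median ratio of replicate 2 to replicate 1 width was 0.786. The score, the authors' own value of unstated unit, was compared only within the arm. Its median ratio of replicate 2 to replicate 1 was 0.939 (interquartile range 0.827 to 1.09), and 736 of 740 pairs lay between 0.5 and 2. Across pairs the replicate scores had a Spearman's rho of 0.800 and a Pearson's r of 0.823 on the log2 scale. Those are descriptions over 740 pairs that share their 2 libraries.

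The pairs that differed most in score were as follows. The site from 821325 to 821984 scored 4.78 in replicate 2 and 1.95 in replicate 1, the largest ratio in that direction (2.45). Its replicate 2 peak was 169 bp wide and its replicate 1 peak 653 bp. The sites from 1974038 to 1974279 and from 4457972 to 4458402 followed, with ratios of 2.40 and 2.20 and likewise a replicate 2 peak narrower than the replicate 1 peak. In the opposite direction, the site from 7976765 to 7977024 scored 2.36 in replicate 2 and 5.14 in replicate 1, a ratio of 0.458. The sites from 8692626 to 8692805 and from 2874801 to 2874962 had ratios of 0.579 and 0.582.

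Along the arm, the number of sites per 1 Mb block ranged from 16 to 64, with a mean of 38.2 ± 13.0 (SD over 20 blocks). Both ends of the interval were dense. The most distal block, 0 to 1 Mb, held the most sites in the joined list (64, exact 95% Poisson interval 49.3 to 81.7) and in each replicate, with 103 and 78 peaks in replicates 1 and 2. The most proximal block, 19 to 20 Mb, followed with 59 sites (44.9 to 76.1), and 6 to 7 Mb was the third with 52 (38.8 to 68.2). The 19 to 20 Mb block ranked the second in replicate 2, with 72 peaks, but the fifth in replicate 1, with 77. The 6 to 7 Mb block had 70 peaks in replicate 1 and 57 in replicate 2 and ranked the eighth and the ninth there. Its place among the 3 densest rests on a high share of overlapped peaks, 74.3% in replicate 1 and 94.7% in replicate 2.

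The sparsest blocks lay in the proximal part of the interval. The block from 14 to 15 Mb held 16 sites (9.15 to 26.0), that from 17 to 18 Mb held 19 (11.4 to 29.7) and that from 15 to 16 Mb held 21 (13.0 to 32.1). These 3 blocks also held the fewest peaks of each replicate, with 30, 28 and 37 in replicate 1 and 18, 23 and 25 in replicate 2, in the order given. The 16 to 17 Mb block, which lies between 2 of them, held 51 sites. The intervals of the 3 sparsest blocks did not overlap those of the 3 densest. Because the blocks were picked by these same counts, this is a description and not a test.

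Read from the telomere side, the counts did not follow a steady gradient. After the 64 sites of the first megabase, the blocks from 1 to 4 Mb held 39, 41 and 39 sites. The 4 to 5 Mb block held 22, with 42 replicate 1 and 27 replicate 2 peaks, and 5 to 6 Mb held 35. The blocks from 6 to 9 Mb held similar totals of 52, 45 and 44 sites. Counts of 36, 32 and 26 followed from 9 to 12 Mb, and both replicates also had fewer peaks in each of these blocks than in the one before. The blocks from 12 to 14 Mb held 45 and 40 sites, ahead of the 16 and 21 between 14 and 16 Mb. The 18 to 19 Mb block held 38, next to the 59 of the last block. The median spacing was 3386 bp in the 0 to 1 Mb block and 53953 bp in the 14 to 15 Mb block, the shortest and the longest of the 20.

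The share of peaks found by both replicates also varied along the arm. In replicate 1 it ranged from 47.4% of the 76 peaks of the 9 to 10 Mb block to 77.9% of the 77 peaks of the 19 to 20 Mb block. In replicate 2 it ranged from 62.9% of 62 peaks at 1 to 2 Mb to 94.7% of 57 peaks at 6 to 7 Mb. The number of joined sites in a block depends on this share as well as on the peaks called. At 9 to 10 Mb, 76 and 53 peaks of replicates 1 and 2 left 36 sites, and at 6 to 7 Mb, 70 and 57 peaks left 52.

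**Figure D1:**
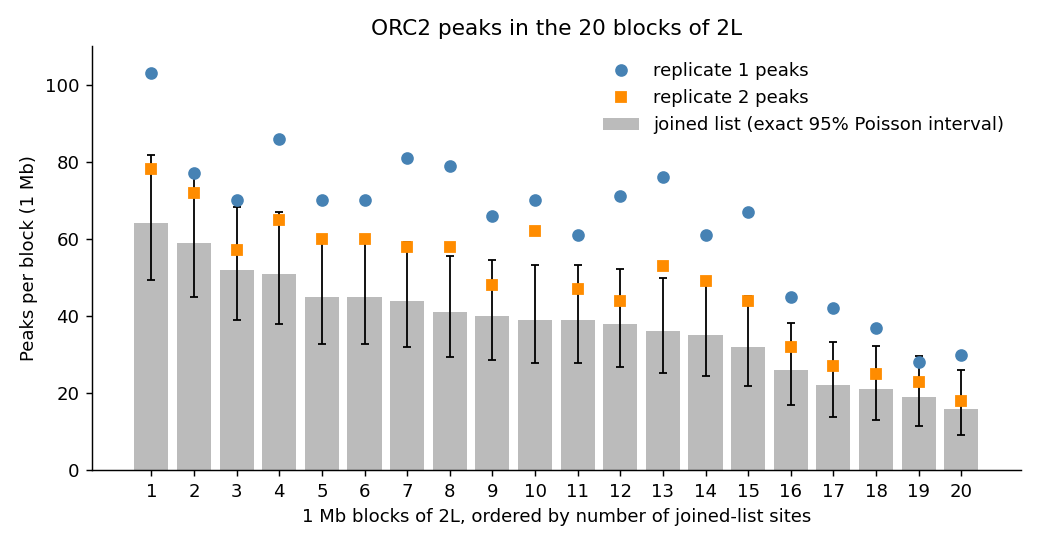
Number of ORC2 peaks (vertical axis) in each of the 20 blocks of 1 Mb, ordered from most to fewest joined sites (horizontal axis). Bars are joined sites with exact 95% Poisson intervals, circles replicate 1 and squares replicate 2. Joined counts run from 64 to 16, and both replicates fall to 30 peaks or fewer in the last 2 blocks.

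In finer windows of 100 kb the replicates gave nearly the same map. Over the 200 windows, the peak counts of replicates 1 and 2 had a Pearson's r of 0.936 and a Spearman's rho of 0.924, given as a description because windows share libraries and mappability. The 10 windows with the most replicate 1 peaks, 16 to 27 each, held 8 to 25 replicate 2 peaks with a median of 16.5. Over all windows replicate 2 had a mean of 4.90 peaks and a median of 3.50. The 10 windows with the most replicate 2 peaks, 15 to 25 each, held 15 to 27 replicate 1 peaks with a median of 20.5, and the mean of replicate 1 over all windows was 6.45. The 19 windows without a replicate 1 peak held 7 replicate 2 peaks in all, and at most 2 in any one. Such windows could hold almost only replicate 2 peaks without a counterpart, of which the 200 windows had 195. The low count is therefore set in part by the choice of windows.

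Dense and empty windows were both present. In the joined list 15 windows (7.50%) held 10 or more sites, and these 15 windows held 190 of the 764 sites (24.9%). Another 33 windows (16.5%) held no site, and 13 of those held no peak of either replicate. The peaks called in 1 replicate followed this map less closely. Over the 200 windows, the counts of replicate 1 and replicate 2 peaks without a counterpart had a Pearson's r of 0.596 and a Spearman's rho of 0.538. Replicate 1 peaks without a counterpart averaged 6.20 in the 15 dense windows, 2.62 in the 152 windows between, and 0.909 in the 33 empty ones. For replicate 2 these means were 3.33, 0.882 and 0.333. Of the unmatched replicate 1 peaks, 60.1% lay within 5 kb of a joined site, as did 53.3% of those of replicate 2. Within 1 kb the shares were 31.3% and 24.1%. How much of the interval lies that near a joined site was not measured, so these shares have no baseline.

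**Figure D2:**
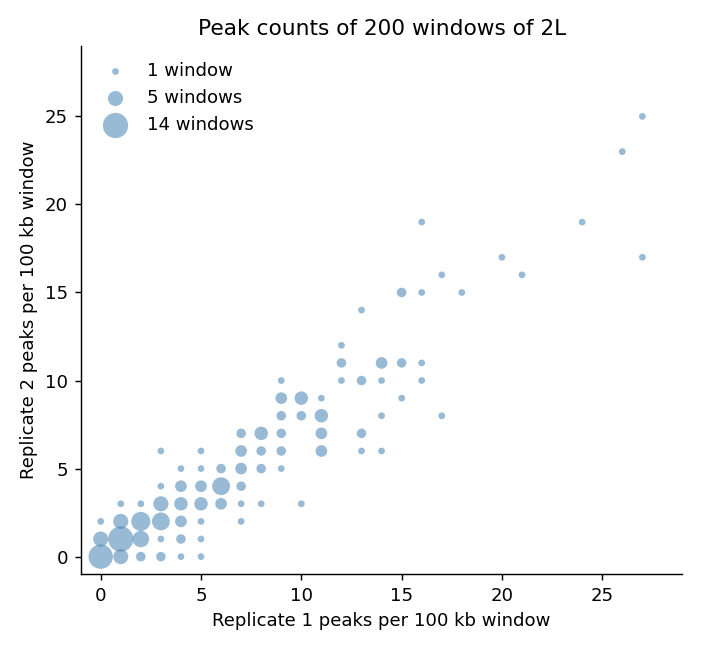
Replicate 1 peaks (horizontal axis) against replicate 2 peaks (vertical axis) in the 200 windows of 100 kb, with circle area proportional to the number of windows at each pair of counts. The points rise together from windows with no peak in either replicate to one with 27 replicate 1 and 25 replicate 2 peaks.

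The densest window lay from 19100001 to 19200000 and held 19 sites between 19114298 and 19186088, from 27 replicate 1 and 25 replicate 2 peaks. Of the next 4 windows, 3 lay in the most distal megabase. The window from 500001 to 600000 held 16 sites, that from 400001 to 500000 held 15 and that from 800001 to 900000 held 13. The window from 1100001 to 1200000 held 14. A window at 9.7 Mb also held 13 sites and had fewer replicate 1 peaks than the one at 0.8 Mb, 16 against 20, which decided the tie. Median site widths in the 5 windows were 391, 372, 224, 382 and 325 bp in order of rank, against 198 bp over all 764 sites. The third of these is close to that of all sites. Median scores were 2.08, 2.25, 2.36, 1.88 and 2.34, against 2.76 over all sites.

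The same held over all dense windows. The 190 sites of the 15 dense windows were 271 bp wide at the median (quartiles 164 and 466 bp), against 181 bp (123 and 297 bp) for the 574 other sites. Their median score was 2.54 (2.04 to 3.14), against 2.86 (2.35 to 3.73). Each replicate showed the same order, with median scores in dense windows of 2.60 in replicate 1 and 2.42 in replicate 2, against 2.97 and 2.79 elsewhere. The count of sites in a window depended on how close peaks were treated. Whether close peaks are parts of 1 wide region was not tested. With peaks less than 1 kb apart counted as 1, the 5 windows held 11, 10, 8, 12 and 11 sites in order of rank, and 5 windows of the interval in place of 15 reached 10.

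Neighbouring sites were then grouped into runs over the whole interval. When consecutive sites with edges less than 5 kb apart were joined, 318 sites (41.6%) had no neighbour and 446 (58.4%) fell into 157 runs. Of those, 18 runs held 5 or more sites, 108 sites in all (14.1%), and they spanned a median of 9.01 kb (3.31 to 14.5 kb). The 0 to 1 Mb and 16 to 17 Mb blocks held 3 such runs each, the 19 to 20 Mb block held 4, and 9 of the 20 blocks held none. At the same distance 33.4% of replicate 1 peaks and 19.3% of replicate 2 peaks were in runs of 5 or more, so how many sites are in runs moved with the number of peaks called.

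The run with the most sites spanned 479061 to 492479 (13.4 kb) and held 9, with widths of 177 to 836 bp and scores of 1.65 to 4.70. Another 9 sites lay between 19131897 and 19142312 (10.4 kb). Runs of 7 sites spanned 9907302 to 9921751, 19154866 to 19166314 and 2192348 to 2203610. They differed in how much of their length was called. Sites covered 44.8% of the run at 19154866, where the median width was 638 bp, but 10.9% of the run at 9907302, where it was 233 bp. In the run at 2192348 the median score was 3.13, above the 2.76 of all sites, while in the other 4 it was 2.68 or less.

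Spacing between neighbours covered 3 orders of magnitude. The median distance between consecutive midpoints was 9339 bp (interquartile range 2332 to 25754 bp) and the mean was 26.0 kb, pulled up by long empty stretches. Replicate 1 peaks were 4457 bp and replicate 2 peaks 6727 bp apart at the median. The distances showed 2 maxima on a logarithmic scale, with a continuous spread between them. Whether they form separate groups was not tested. One maximum lay at 464 to 681 bp, a class with 48 of 763 distances (6.29%). The other lay at 14678 to 21544 bp, a class with 76 (9.96%). Between them the class from 2154 to 3162 bp held 34 (4.46%).

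Both replicates had the same form. The short-distance maximum lay in the class from 464 to 681 bp in each, with 10.2% of replicate 1 and 7.66% of replicate 2 distances. The broad maximum lay at 6813 to 10000 bp in each, with 8.77% and 8.99%. In each replicate the smallest gap between the edges of neighbouring peaks was exactly 200 bp, in this interval and over all chromosomes, so no 2 peaks of 1 list lie closer. In the joined list, 143 of 763 edge gaps (18.7%) were under 1 kb, with a median of 369 bp.

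**Figure D3:**
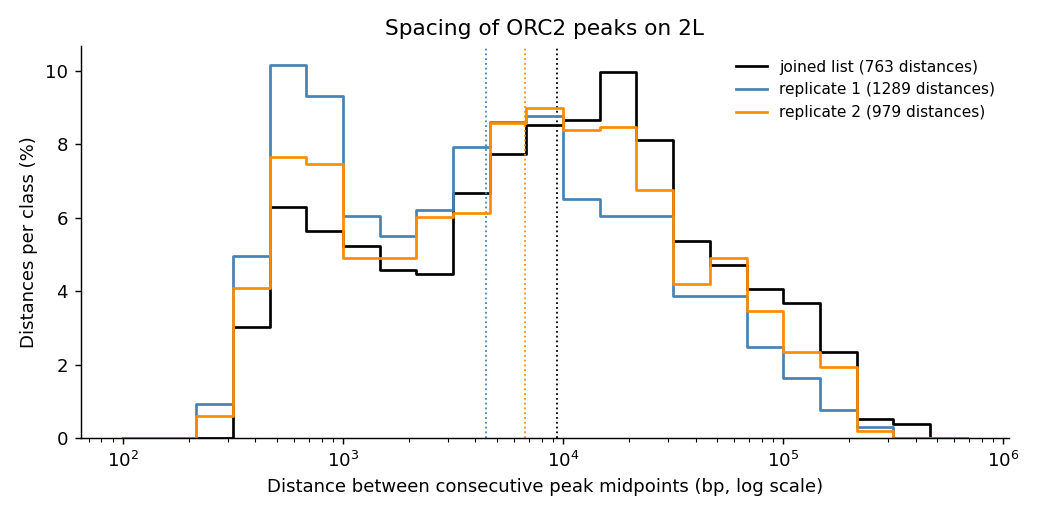
Distances between consecutive peak midpoints in bp (horizontal axis, log scale, classes of equal width on it), as a percentage of each list's distances (vertical axis). Dotted lines mark the medians of 9339, 4457 and 6727 bp for the joined list, replicate 1 and replicate 2, and each list shows a maximum below 1 kb and a broader one above 6 kb.

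Isolated sites were few. Only 35 sites (4.58%) had their nearest neighbour 50 kb or more away, and 204 (26.7%) had one within 1 kb. The isolated sites had a median score of 3.0 (interquartile range 2.36 to 4.73), and the closely spaced ones a median of 2.69 (2.26 to 3.40). Their median widths were 181 and 213 bp, given in the same order. The interquartile ranges overlap for both measures. In replicate 1 the median scores of isolated and closely spaced sites were 3.24 and 2.86, and in replicate 2 they were 3.16 and 2.59, the same order in each.

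Long stretches without a joined site made up much of the arm. There were 53 stretches of more than 100 kb, and together they spanned 8.61 Mb or 43.0% of the interval. They took up 80.3% of the 15 to 16 Mb block and 79.8% of the 17 to 18 Mb block, but 10.4% of the 7 to 8 Mb block. Replicate 1 had 108 peaks in these stretches, or 12.5 per Mb (10.3 to 15.2), against 36.2 unmatched peaks per Mb (32.8 to 39.9) in the rest of the interval. Replicate 2 had 38, or 4.42 per Mb (3.12 to 6.06), against 13.8 (11.7 to 16.1). No joined site could lie in a stretch by definition, so the comparison is of unmatched peaks with unmatched peaks. In 10 of the 53 stretches neither replicate had a peak.

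The longest stretch, 372 kb from 16889064 to 17260645, held 1 replicate 1 peak of 2 bp and 2 replicate 2 peaks of at most 16 bp. By definition the stretch could hold only unmatched peaks, which outside such stretches numbered 36.2 per Mb in replicate 1 and 13.8 in replicate 2. Over a length of 372 kb, the counts of both replicates are below these rates. It separates a trio of sites within 2 kb of each other, which ends at 16889063 with a site of score 1.80, from a site at 17260646 to 17260884 with a score of 2.12. The next stretch, 325 kb from 3872556 to 4197715, had 1 peak of each replicate. Its proximal border is a site of 37 bp (4197716 to 4197752) whose replicate 2 peak is only 3 bp wide. Without sites under 50 bp this stretch would run on to 4333200, reach 461 kb and be the longest.

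The third stretch, 318 kb from 9176474 to 9494747, differed between replicates. It held 11 replicate 1 peaks and 1 replicate 2 peak. Outside the stretches over 100 kb, the rates of unmatched peaks were 36.2 and 13.8 per Mb. Over a length of 318 kb, the 11 replicate 1 peaks are close to the rate of that replicate. The 1 replicate 2 peak is below its rate. The 11 replicate 1 peaks were 5 to 146 bp wide and had a median score of 3.17, above the 2.24 of all unmatched replicate 1 peaks. A neighbouring pair from 9387578 to 9387707 and from 9388171 to 9388303 scored 5.26 and 4.84. Whether replicate 2 missed sites there was not tested, since its read depth is unknown.

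The other named stretches were close to empty in both replicates. Stretches of 289 kb (11517360 to 11806162), 267 kb (4458941 to 4726151), 232 kb (12133839 to 12366112), 219 kb (10517369 to 10736006) and 210 kb (1434266 to 1644427) held 0 to 3 replicate 1 peaks and 1 or 2 replicate 2 peaks each. One of the 2 replicate 2 peaks in the 267 kb stretch (4661095 to 4661152, 58 bp) had a score of 7.84, the third highest of all unmatched replicate 2 peaks of the interval. When the stretches were instead chosen in replicate 1, its 8 longest spanned 1.83 Mb and held 6 replicate 2 peaks, where the mean density would give 89.5. The 8 longest replicate 2 stretches spanned 1.76 Mb and held 25 replicate 1 peaks, where it would give 113. Both means count matched peaks, which cannot lie inside a stretch empty of the other replicate.

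**Figure D4:**
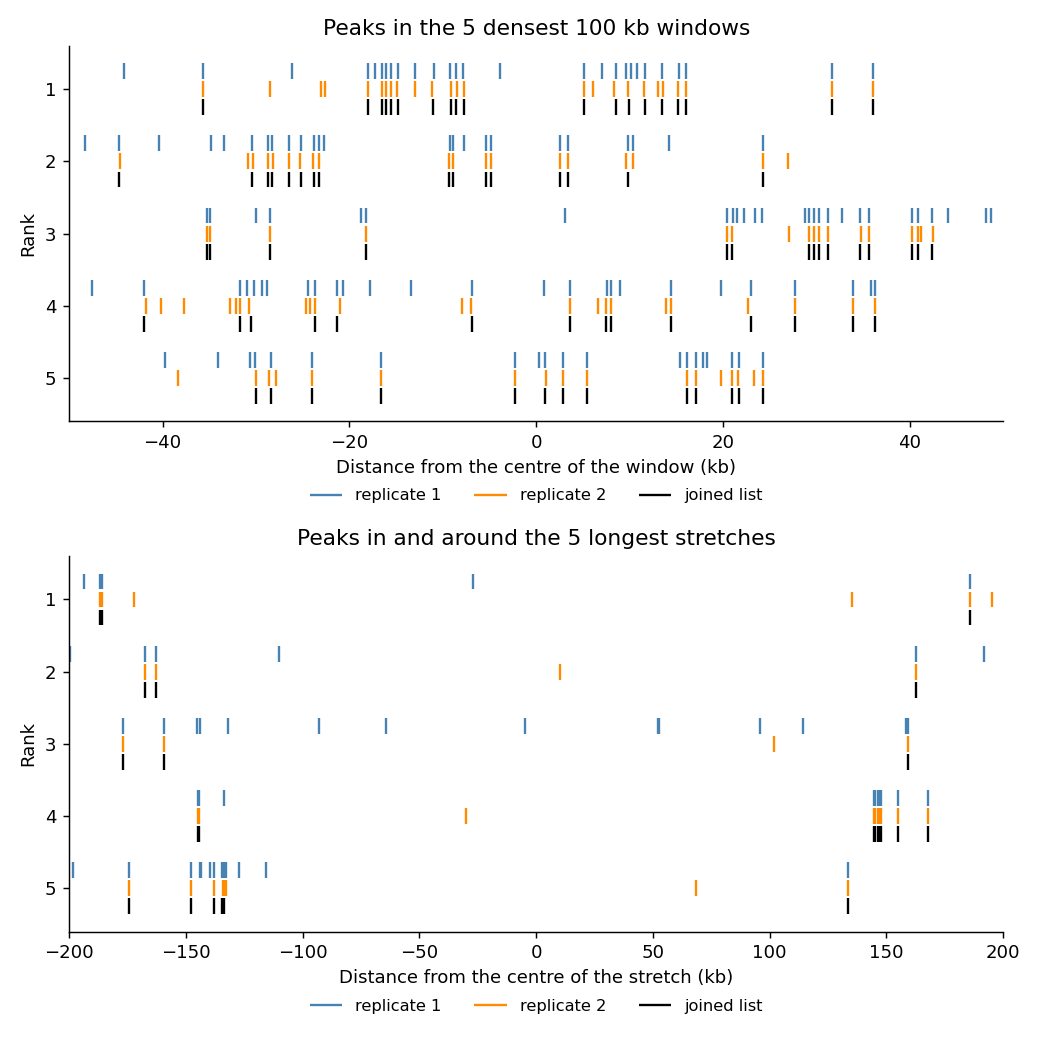
Peak midpoints (ticks) of replicate 1, replicate 2 and the joined list by distance in kb from the centre of the 5 densest windows (upper panel) and of the 5 longest stretches (lower panel), by rank. In the upper panel the windows hold 19 to 13 joined sites, each of which unites peaks of both replicates by definition. In the lower panel the stretch ranked 3 holds 11 replicate 1 peaks and 1 replicate 2 peak.

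Site widths ranged from 5 to 2474 bp, with a median of 198 bp and quartiles of 127 and 349 bp. The median was 131 bp over all replicate 1 peaks and 104 bp over all replicate 2 peaks, whose unmatched peaks were narrow. Joined sites also take the outer limits of both replicates. In the joined list 9 sites were 1000 bp or wider and 11 were under 50 bp. The narrowest, 7530600 to 7530604, joined 2 peaks of 3 bp each.

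The widest site, from 12010202 to 12012675, was a single peak of 2473 bp in replicate 1 and 3 separate peaks of 1857 bp in all in replicate 2. Its score was 2.81. The next widest, from 19157914 to 19159246 (1333 bp), lies in one of the runs of 7 described above. The other 8 of the 10 widest spanned 992 to 1265 bp and began at 1118822, 9699740, 2752182, 3058631, 5979936, 9960945, 14023676 and 16532739. Of the 10, 6 joined more than 1 peak of a replicate. All 10 had a neighbour whose midpoint lay within 961 to 4090 bp, and 8 of the 10 scored below the median of the interval. The exceptions were the widest site and the one at 16532739, which scored 3.88.

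The highest scores were at narrow sites. The 10 highest-scoring sites were 82 to 193 bp wide, and the 190 widest sites (352 bp or more) had a median score of 2.56, against 2.92 for the 194 narrowest (127 bp or less). Over all sites width and score had a Spearman's rho of -0.187. Over all 1290 replicate 1 and 980 replicate 2 peaks it was 0.0721 and 0.0715. Those lists include the unmatched peaks, which were narrow and had lower median scores. These were 2.24 and 2.15 in replicates 1 and 2, against 2.86 and 2.68 for overlapped peaks. The values are therefore not a comparison over the same sites. At the 190 widest joined sites the median replicate 1 score was 2.60, against 2.94 at the 194 narrowest. In replicate 2 these medians were 2.43 and 3.01. The relation of each replicate's own widths to its scores at joined sites alone was not tested.

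**Figure D5:**
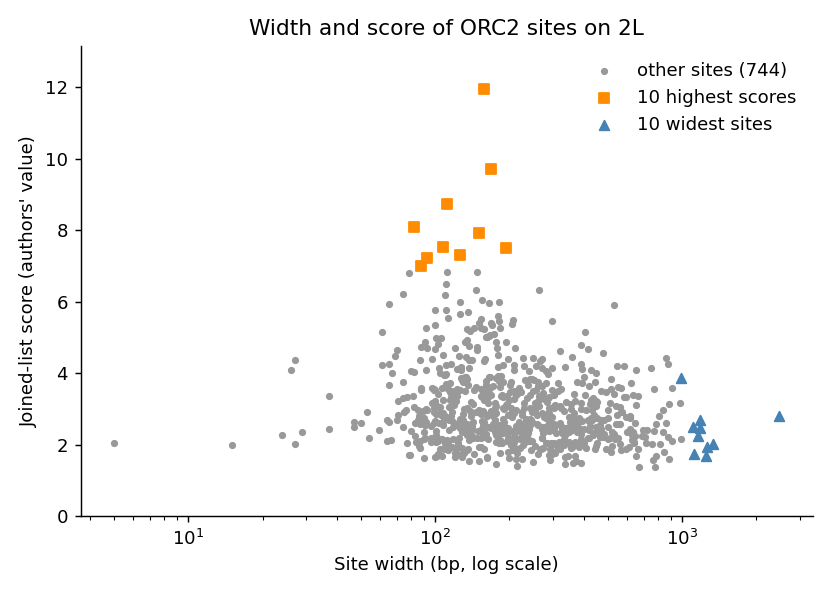
Width in bp (horizontal axis, log scale) against the authors' score (vertical axis) for the 764 sites, with the 10 highest-scoring sites as squares and the 10 widest as triangles. The 10 highest-scoring sites are 82 to 193 bp wide, and the 10 widest score 1.69 to 3.88.

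The site with the highest score on the interval, from 11948580 to 11948737, scored 9.63 in replicate 1 over 155 bp and 14.3 in replicate 2 over 150 bp. It stands 119072 bp from the joined site before it and 54288 bp from the joined site after it. Its window of 100 kb also held 3 replicate 1 peaks without a counterpart. The site from 19393823 to 19393991 scored 7.97 and 11.4 in replicates 1 and 2, and that from 6851964 to 6852075 scored 7.91 and 9.58. All 3 scored higher in replicate 2.

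Among the next 7, a pair of sites had peaks of very different width in the 2 replicates. The site from 13215971 to 13216052 scored 6.44 and 9.73 in replicates 1 and 2, but its replicate 2 peak was 8 bp wide and its replicate 1 peak 82 bp. The site from 17603395 to 17603482 scored 5.34 and 8.65, with a 21 bp peak in replicate 1 and an 88 bp peak in replicate 2. It is also isolated, with no other site within 102 kb on either side. The sites from 18590796 to 18590946, 8951162 to 8951269, 7856481 to 7856673 and 7258245 to 7258370 each scored higher in replicate 1, between 7.88 and 8.74, than in replicate 2, between 6.34 and 7.47. The site from 12823509 to 12823601 scored 6.10 and 8.34 and was the one of the 10 with a neighbour within 1 kb.

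High-scoring sites were spread over many windows. The 77 sites that scored 4.51 or more fell into 63 windows, and 7 of them (9.09%) were in the 15 dense windows, which held 24.9% of all sites. The 7 to 8 Mb block had the most, 10 of its 45 sites, and also the highest median score, 3.43 against 2.42 to 3.10 in the other blocks. It led in each replicate as well, with median scores of 3.09 and 3.11 in replicates 1 and 2. The 0 to 1 Mb block, with the most sites, had 6. Over the 20 blocks the number of such sites and the number of all sites had a Spearman's rho of 0.511, given as a description.

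High scores also occurred at peaks that the other replicate lacked. In replicate 1 the peak from 9567535 to 9567565 (31 bp) scored 13.7, and those from 15118202 to 15118223 and from 5326698 to 5326797 scored 7.63 and 7.46. In replicate 2 the peaks from 16656769 to 16656808 (40 bp) and from 2145159 to 2145202 (44 bp) scored 8.80 and 7.91, followed by the peak at 4661095 named above. All 6 were 22 to 100 bp wide. None was a joined site, and they are counted in the values above only among the replicate peaks.

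The first 20 Mb of 2L held fewer sites than the same coordinates of the other 4 large arms. The counts were 764 on 2L, 1065 on X, 811 on 3L, 886 on 3R and 916 on 2R. The order was the same at its ends in each replicate, with 1290 peaks on 2L and 1445 to 1673 on the other arms in replicate 1, and 980 against 1016 to 1294 in replicate 2. The interval of the 2L density, 35.5 to 41.0 per Mb, overlapped that of 3L, 37.8 to 43.4. Block counts were 38.2 ± 13.0 on 2L, against 53.3 ± 8.55 on X and 40.6 ± 11.7 on 3L (SD over 20 blocks each). They were 44.3 ± 13.6 on 3R, a larger SD than on 2L, and 45.8 ± 11.6 on 2R. Windows with no site numbered 33 on 2L and 21 to 28 on the other arms, and the longest stretch was 372 kb on 2L and 258 to 332 kb on the others. No test of these differences was made, and the same coordinates lie toward the telomere on 2L, 3L and X but toward the centromere on 2R and 3R.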

How the data were processed

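Kc167 ORC2 ChIP-seq was deposited as 1 peak list per ChIP replicate and 1 joined list. Positions are in FlyBase release 5, per the file headers, and PeakSeq is named as the source of the peaks. The peak score is the authors' deposited value, and the sources used here do not give its unit, the aligner, the threshold, the role of the input or the read depth. In the interval all 764 joined sites had the outer limits of the replicate peaks they unite, and 759 had the mean score within 0.0001.

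Positions count from 1. Overlap meant at least 1 bp, and windows and blocks took a peak by its midpoint. Poisson and Clopper-Pearson 95% intervals cover counting error of peaks only, and peaks are not independent. With 2 ChIP samples and no comparison group, no test across samples could be made, and no p-value is given. The sites named are the 10 highest in score, the 10 widest, the 5 densest windows, the 5 largest runs, the 8 longest stretches, 3 densest and 3 sparsest blocks, and the extremes of replicate disagreement (3 each). The 5 bp site, the 11 peaks of the third stretch and the 9.7 Mb window were added after their values were seen. The interval and measures were chosen with earlier results of these data known. No release 5 genome or annotation was used, so neither sequences nor genes are given. The supplied gene table is on another release. Alternatives were other overlap rules, filters, window positions and each replicate alone. Software was scipy 1.17.1, numpy 2.4.6, matplotlib 3.10.9, pandas 2.3.3 and Python 3.11.15, and the measures were tested on simulated data.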

Additional observations from a re-analysis of the deposited data

How the results depend on the processing

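Densities, spacings and counts moved with the list used and the score filter. Shifting the windows gave 11 dense and 31 empty windows, and leaving out the first and last 1 Mb gave 10 and 30. Without replicate 1 or replicate 2, the density was 49.0 or 64.5 per Mb, the median width 104 or 131 bp, the median spacing 6727 or 4457 bp, dense windows 28 or 52, empty windows 24 or 19, and the longest stretch 308 or 278 kb. The higher-scoring 50% of sites gave 19.1 per Mb, a width of 177 bp, a spacing of 25095 bp, 1 dense and 51 empty windows, and a longest stretch of 480 kb. This list has fewer sites, and the cause of the change in width was not tested. Counting peaks under 1 kb apart as 1 gave a width of 221 bp, a spacing of 14377 bp and 5 dense windows. Sites of at least 50 bp gave a longest stretch of 461 kb. The overlapped share of replicate 1 and replicate 2 peaks was 39.8 and 52.3% with 50% reciprocal overlap, 65.5 and 84.7% with midpoints within 500 bp, and 73.0 and 86.9% for the higher-scoring 50%. With peaks of at least 50 bp it was 88.9% in replicate 2. No paired analysis was possible because there was 1 ChIP group and no test.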

Other observations

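Equal scores were common within the interval. In replicate 1, 531 of 1290 peaks (41.2%) had exactly the score of another peak of the interval, and these had a median width of 85.0 bp, against 182 bp for peaks with a score of their own. In replicate 2 it was 369 of 980 (37.7%), with medians of 73.0 and 135 bp. Small differences in score between narrow peaks should be read with this in view.

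The median score of a 1 Mb block showed little relation to its number of sites, with a Spearman's rho of -0.145 over 20 blocks, given as a description. Block median widths ranged from 156 to 303 bp, the widest being the 15 to 16 Mb block, which is among the 3 sparsest.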
